A study of Mus musculus with 10 samples.

Results

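The genes described here are 9 components, regulators and receptors of the complement system, among 55573 genes measured by RNA-Seq in mouse bone marrow–derived macrophages (BMDMs). They are C3, Cfb, Cfp, C1qa, C1qb, C1qc, C3ar1, C5ar1 and Serping1. The list was drawn up by gene name, and all 9 names matched a row of the table. BMDMs came from the marrow of female C57BL/6 mice that were WT in genotype and were grown in MCSF, and every group was collected after 4 hours. Vehicle-treated cells were the reference. The polyU group received 5 µg of a poly-uridine single-stranded RNA complexed with DOTAP, a cationic lipid that carries RNA into endosomes. The PNPi+dG/rG group received 1 µM ulodesine, an inhibitor of purine nucleoside phosphorylase (PNP), with 5 µM deoxyguanosine (dG) and 5 µM guanosine (rG). The PNPi+dG/rG+polyU group received all of these together. The R848 group received 1 ng/mL of R848, a synthetic imidazoquinoline ligand of TLR7. Each group held 2 libraries titled as biological replicates, and whether they came from separate mice, or whether the vehicle held DOTAP, was not given in the sources used here. The p-values therefore measure only the spread between these libraries, which may be technical.

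Complement is a set of plasma and tissue proteins that tag and destroy microbes and mark dying cells for removal. The classical pathway starts when C1q, a hexamer built from A, B and C chains, binds its target. The alternative pathway runs on C3 itself, with factor B (Cfb) as the protease precursor of its convertase and properdin (Cfp) as the protein that stabilizes that convertase. All pathways meet at the cleavage of C3, and the small fragments C3a and C5a act on cells through the receptors C3ar1 and C5ar1. C1 inhibitor (Serping1) blocks the proteases that start the classical and lectin pathways. The liver makes most of the plasma proteins, while macrophages are a main source of C1q and also make C3 and properdin.

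All 9 genes lie on the minus strand in GRCm38. The C1q chains are neighbours on chromosome 4, with C1qb at chr4:136880129-136886187, C1qc at chr4:136889804-136893065 and C1qa at chr4:136895917-136898803, so that the cluster spans 18.7 kb. C3 is at chr17:57203970-57228136, Cfb at chr17:34856374-34862518, Cfp at chrX:20925454-20931555, C3ar1 at chr6:122847138-122856161, C5ar1 at chr7:16246743-16259540 and Serping1 at chr2:84765387-84775444. Promoters of 6 of the 9 genes were found among the RefSeq sequences for GRCm38.p6. Shown are the 250 bases before the annotated start of C3, the member with the largest change among those well expressed, of C1qb, the most abundant C1q chain, and of Cfp, which changed little. They cover chr17:57228137-57228386, chr4:136886201-136886450 and chrX:20931556-20931805, each on the minus strand and written 5′ to 3′, with matches to a searched motif in capitals.
C3: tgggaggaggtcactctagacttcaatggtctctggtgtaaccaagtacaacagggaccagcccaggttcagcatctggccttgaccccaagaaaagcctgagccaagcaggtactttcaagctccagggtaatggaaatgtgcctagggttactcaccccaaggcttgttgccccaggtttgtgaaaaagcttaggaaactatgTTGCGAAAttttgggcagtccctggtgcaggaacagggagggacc
C1qb: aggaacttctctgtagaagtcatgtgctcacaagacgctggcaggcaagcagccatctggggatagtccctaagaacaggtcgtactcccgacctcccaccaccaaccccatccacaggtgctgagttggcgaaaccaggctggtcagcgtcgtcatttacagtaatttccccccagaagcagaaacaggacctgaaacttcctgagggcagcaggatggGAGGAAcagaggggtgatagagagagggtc
Cfp: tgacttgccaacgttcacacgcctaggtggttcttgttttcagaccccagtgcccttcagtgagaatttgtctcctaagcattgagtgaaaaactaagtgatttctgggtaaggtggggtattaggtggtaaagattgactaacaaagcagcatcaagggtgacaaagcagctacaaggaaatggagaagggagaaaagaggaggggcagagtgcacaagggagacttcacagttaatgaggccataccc

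Motifs were searched on both strands. In C3 the capitals mark a match to TTGCGNAA, a C/EBP-like motif chosen after the sequences were seen, which begins 45 bases before the start. It was in 0.67% of 32851 promoters of that length and in 1 of the 6 members. In C1qb they mark GAGGAA, the core bound by PU.1, 30 bases before the start. That core was in 23.3% of all promoters and in 2 of the 6 members, C1qb and C1qc. The interferon-stimulated response element core (2.98% of all promoters) and the gamma-activated site TTCNNNGAA (7.02%) were in 0 of the 6. The NF-κB consensus (5.0% of all promoters) was in C1qc alone among them. A match describes the letters only.

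Libraries held 14128128 to 38392590 reads on genes, and values were in CPM, a library's reads on a gene scaled to a common total. A level of 3 reads, used as the detection floor, was 0.0781 to 0.212 CPM, and floors cover counting error only. All 10 macrophage markers checked were above 3 reads in every group, with a summed level of 13700 to 18500 CPM. R848 moved the whole scale: the median log2 level of the 11978 genes tested was 0.59 lower than in vehicle, and that of PNPi+dG/rG+polyU was 0.21 lower. Every comparison was therefore also made with each library centred on its median, and both values are given where the direction differs. In these bulk samples, fewer cells of a type and less RNA per cell cannot be told apart. The R848 libraries also held fibroblast transcripts, described with Serping1.

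Of the 9 members, 7 were above 1 CPM in every library. Cfb and Serping1 passed the filter on low values only through R848 and are described apart from all counts below. Calls are from limma at an adjusted p under 0.05. With polyU alone, 4 of the 7 rose (C3 and the C1q chains) and 1 fell (C5ar1), while 20.6% of all genes tested were higher and 18.7% lower. PNPi+dG/rG alone called 0 of the 7 in limma, against 0.801% of all genes, and at an unadjusted p under 0.05 it called 1 of them and 1076 of all genes. In PNPi+dG/rG+polyU the same named members passed as with polyU, 4 higher and 1 lower, against 22.2% and 46.7% of all genes. R848 gave 1 higher and 5 lower, against 19.2% and 62.9%. With centred libraries the R848 count became 6 higher and 1 lower, against 43.0% and 34.6% of all genes. That of PNPi+dG/rG+polyU also became 6 higher and 1 lower, against 33.2% of all genes in each direction. The 7 had a median log2 fold change of 0.31 in polyU, -0.20 in R848 and 0.28 in PNPi+dG/rG+polyU, where the medians of all genes were 0.02, -0.50 and -0.22. These comparisons share the vehicle libraries.

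**Figure D1:**
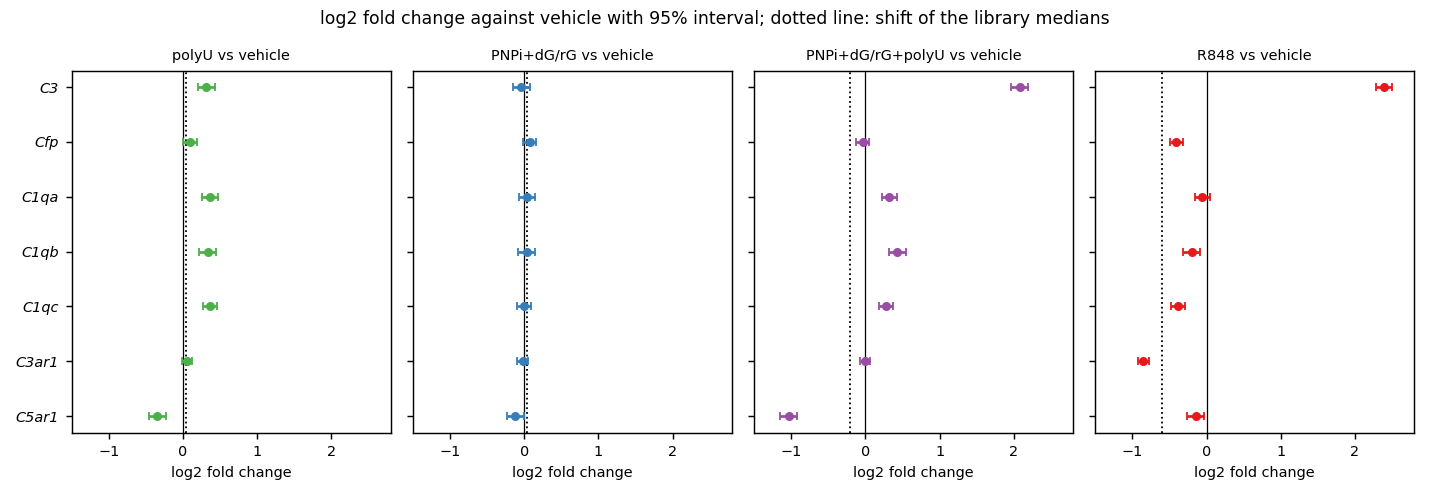
The log2 fold change against vehicle (x axis) of the 7 complement genes above 1 CPM in every library (y axis), 1 panel per treatment, with 95% intervals from limma as bars. The solid line is 0 and the dotted line the shift of the library medians; in the R848 panel C3 stands at 2.39, 5 genes lie between the lines, and C3ar1 at -0.85 is left of both.

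C3, the protein on which all complement pathways converge, was the member with the largest rise among the 7 in both strong treatments. Vehicle libraries held 402 and 415 CPM, PNPi+dG/rG 399 and 397, polyU 474 and 542, R848 2074 and 2207, and PNPi+dG/rG+polyU 1718 and 1735. The replicates were close, the 2 strong treatments lay far above the rest, and no library of one overlapped the other. Here and for the members below, how many of all genes show such separation of groups was not counted. C3 rose 4.23-fold with PNPi+dG/rG+polyU (log2 2.08 ± 0.05 SE, adjusted p = 5.743e-14) and 5.24-fold with R848 (log2 2.39 ± 0.05, adjusted p = 5.332e-15). With polyU alone it rose 1.24-fold (adjusted p = 0.0002972), and with PNPi+dG/rG alone its interval ran from -0.15 to 0.08 on the log2 scale (adjusted p = 0.9248). Adding PNPi+dG/rG to polyU raised C3 3.41-fold (log2 1.77 ± 0.05, adjusted p = 8.586e-13), where 15.8% of all genes were higher and 47.5% lower. The effect of PNPi+dG/rG was larger with polyU than without it by 1.81 ± 0.07 on the log2 scale (adjusted p = 9.619e-11), in a comparison that called 11.8% of all genes higher and 38.9% lower. C3 was lower in PNPi+dG/rG+polyU than in R848 by a log2 difference of -0.31 ± 0.05 (adjusted p = 0.0001117). Centring kept all of these directions and calls, with 2.98 in R848 and 2.29 in PNPi+dG/rG+polyU over vehicle. In the order R848, PNPi+dG/rG+polyU, polyU, vehicle, PNPi+dG/rG, only the last neighbours did not pass the test. Fibroblast markers, given with Serping1, were high with R848 and summed to 5.28 CPM or less in PNPi+dG/rG+polyU. Their part in the R848 level of C3 was not tested.

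Properdin (Cfp) moved little. Its levels were 465 and 492 CPM in vehicle, 514 and 493 with PNPi+dG/rG, 506 and 514 with polyU, 352 and 370 with R848, and 466 and 468 with PNPi+dG/rG+polyU. Only the R848 libraries lay apart from the others. Cfp fell by 0.41 on the log2 scale with R848 (SE 0.04, adjusted p = 2.472e-07), but was 0.19 higher once libraries were centred (adjusted p = 0.0007223). Against vehicle its log2 interval was 0.00 to 0.18 with polyU (adjusted p = 0.09918) and -0.13 to 0.06 with PNPi+dG/rG+polyU (adjusted p = 0.4751), and the last turned to 0.18 higher with centring (adjusted p = 0.00155). It fell by 0.13 on the log2 scale from polyU to PNPi+dG/rG+polyU (adjusted p = 0.01616), a difference that turned to 0.13 higher with centring (adjusted p = 0.01669). In the order polyU, PNPi+dG/rG, vehicle, PNPi+dG/rG+polyU, R848, only the last neighbours passed the test.

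Factor B (Cfb) was near the detection floor. It was counted at 9 and 6 reads in vehicle, 18 and 7 with PNPi+dG/rG, 10 and 9 with polyU, 22 and 62 with R848, and 11 and 12 with PNPi+dG/rG+polyU. In CPM the R848 libraries (1.17 and 1.90) lay above every other library, the next highest being 0.844 in PNPi+dG/rG+polyU. Since R848 alone carried it past the filter on low values, the test of R848 against vehicle is not given. PNPi+dG/rG+polyU differed from vehicle by 0.97 ± 0.53 on the log2 scale (adjusted p = 0.1171). No neighbours in the order of its group means passed the test. Of the exon bases of Cfb, 79.5% are shared on the same strand with the readthrough gene Gm20547, which is listed at 0 reads in all libraries. How such overlaps were counted is not given in the sources used here, so the level of Cfb is uncertain. It sat far below its partners in the alternative pathway: per kb of exon, vehicle cells held 0.149 CPM of Cfb, 79.4 of C3 and 276 of Cfp.

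**Figure D2:**
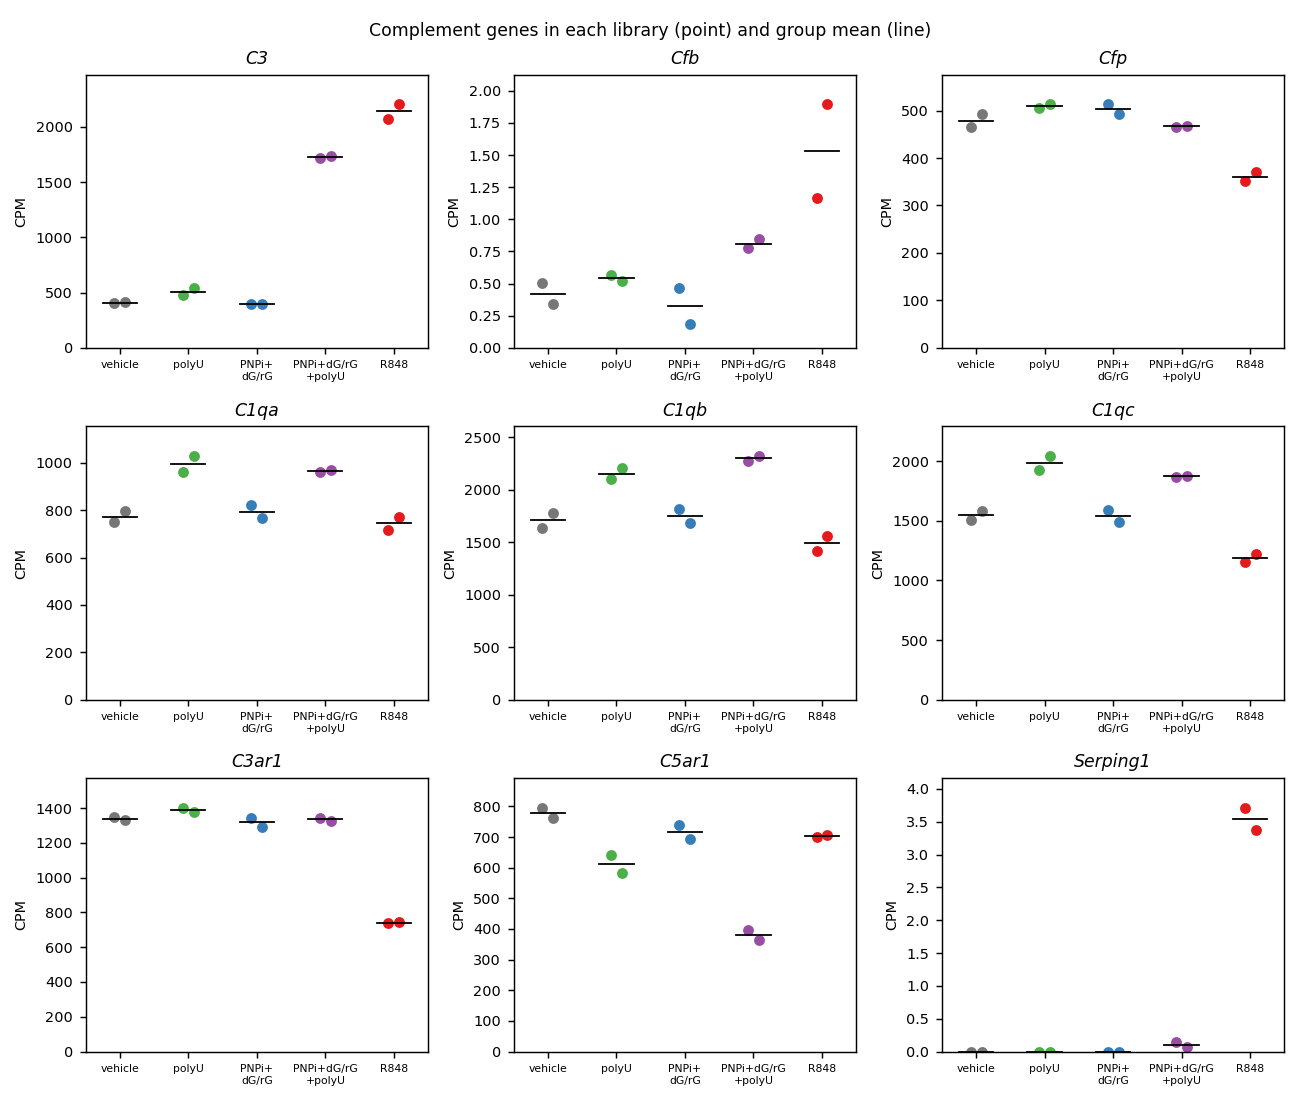
CPM (y axis, from 0, with its own scale in each panel) of the 9 complement genes in each of the 10 libraries (points) by group (x axis), with the group mean as a line. C3 is high in PNPi+dG/rG+polyU and R848, the C1q chains are high in both groups with polyU, C3ar1 is low in R848, C5ar1 is low in PNPi+dG/rG+polyU, and Serping1 is at 3.72 and 3.37 CPM in R848 and at or near 0 elsewhere.

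The C1q chains rose with polyU, whether or not PNPi+dG/rG was present. C1qa was at 749 and 797 CPM in vehicle, 822 and 767 with PNPi+dG/rG, 963 and 1031 with polyU, 718 and 771 with R848, and 961 and 971 with PNPi+dG/rG+polyU. C1qb was at 1633 and 1782 CPM in vehicle, 1812 and 1686 with PNPi+dG/rG, 2098 and 2203 with polyU, 1419 and 1558 with R848, and 2272 and 2324 with PNPi+dG/rG+polyU. C1qc was at 1509 and 1587 CPM in vehicle, 1592 and 1489 with PNPi+dG/rG, 1927 and 2047 with polyU, 1151 and 1221 with R848, and 1867 and 1879 with PNPi+dG/rG+polyU. In CPM, for each chain, every library with polyU lay above every library without it. How many of all genes do so was not counted. With centring this did not hold against R848 for C1qa and C1qb. On the log2 scale C1qa was then 0.54 above vehicle with R848 and 0.32 with polyU. C1qb was 0.40 and 0.29 above vehicle, and C1qc 0.21 and 0.32. The rise with polyU was 1.29-fold for C1qa (adjusted p = 2.499e-05), 1.26-fold for C1qb (adjusted p = 0.0002404) and 1.28-fold for C1qc (adjusted p = 1.052e-05). With PNPi+dG/rG+polyU it was 1.25-fold, 1.35-fold and 1.21-fold (adjusted p = 2.669e-05, 7.506e-06 and 4.578e-05). Centring kept these 6 calls. Between polyU and PNPi+dG/rG+polyU the log2 intervals were -0.15 to 0.06 for C1qa, -0.02 to 0.21 for C1qb and -0.18 to 0.01 for C1qc, and none passed. With centring, PNPi+dG/rG+polyU was higher than polyU by 0.21, 0.35 and 0.17, and all 3 passed (adjusted p = 0.002003, 6.185e-05 and 0.004455). PNPi+dG/rG alone and vehicle were neighbours in the order of all chains and did not pass a test of their difference (adjusted p = 0.8972 to 0.9963).

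With R848 the C1q chains differed from one another. C1qc fell by 0.38 on the log2 scale (SE 0.04, adjusted p = 7.811e-07) and C1qb fell by 0.20 (SE 0.05, adjusted p = 0.003637), while the interval of C1qa was -0.16 to 0.05 (adjusted p = 0.3115). These directions rest on the scaling: with centred libraries C1qc was 0.21, C1qb 0.40 and C1qa 0.54 higher than in vehicle, and all 3 passed (adjusted p = 0.0005231, 9.612e-06 and 7.227e-08). Ratios between chains within a library do not depend on that scaling. Per kb of exon, the ratio of C1qc to C1qa was 0.864 and 0.853 in the R848 libraries and 1.04 to 1.09 in the other 8. The ratio of C1qb to C1qa was 1.89 and 1.93 with R848 and 2.04 to 2.29 elsewhere. The R848 libraries thus lay below all others in both ratios, which were not tested. In vehicle, C1qb held 1570 CPM per kb, C1qc 802 and C1qa 743, above every other member. Exon length was the union of all annotated isoforms, so a gene with rare long isoforms is set too low.

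The anaphylatoxin receptors moved apart. C3ar1, the receptor of C3a, was at 1346 and 1331 CPM in vehicle, 1343 and 1294 with PNPi+dG/rG, 1403 and 1378 with polyU, 740 and 744 with R848, and 1342 and 1329 with PNPi+dG/rG+polyU. The R848 libraries lay far below all others, and the polyU libraries lay slightly above all others. C3ar1 fell to 0.554 of vehicle with R848 (log2 -0.85 ± 0.03, adjusted p = 1.485e-12), and with centring it was still lower, at -0.26 (adjusted p = 4.081e-06). Against vehicle the log2 interval with PNPi+dG/rG+polyU was -0.08 to 0.07 (adjusted p = 0.9285), and the value was 0.21 higher with centring (adjusted p = 5.833e-05). Of the neighbours in its order, only the step down to R848 passed the test.

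C5ar1, the receptor of C5a, showed another pattern. It was at 796 and 761 CPM in vehicle, 738 and 694 with PNPi+dG/rG, 642 and 583 with polyU, 700 and 705 with R848, and 397 and 365 with PNPi+dG/rG+polyU. The lowest libraries were those of PNPi+dG/rG+polyU, followed by those of polyU, with no overlap between them or with any other group. The share of all genes with groups set apart in this way was not counted. C5ar1 fell to 0.489 of vehicle with PNPi+dG/rG+polyU (log2 -1.03 ± 0.05, adjusted p = 8.996e-11) and to 0.786 with polyU (log2 -0.35 ± 0.05, adjusted p = 9.068e-05). From polyU to PNPi+dG/rG+polyU it fell by 0.69 on the log2 scale (adjusted p = 2.218e-08), and the effect of PNPi+dG/rG differed with and without polyU by -0.56 ± 0.07 (adjusted p = 1.708e-05). Centring kept these 4 calls, at -0.82, -0.39, -0.43 and -0.28. With R848, C5ar1 fell by only 0.15 on the log2 scale (SE 0.05, adjusted p = 0.01708), and was 0.45 higher with centring (adjusted p = 5.695e-07). The call against vehicle was lost without vehicle replicate 1 (adjusted p = 0.1191) and without R848 replicate 1 (adjusted p = 0.06232). In the order vehicle, PNPi+dG/rG, R848, polyU, PNPi+dG/rG+polyU, the first 2 steps did not pass the test (adjusted p = 0.4981 and 0.6403) and the last 2 did.

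Compared directly, PNPi+dG/rG+polyU held more C3ar1 than R848 (log2 0.85 ± 0.03, adjusted p = 7.573e-12) and less C5ar1 (log2 -0.89 ± 0.05, adjusted p = 9.109e-10), and both calls kept their direction with centring. This comparison called 53.9% of all genes higher and 16.9% lower. Of the other well expressed members, C1qb (log2 0.63 ± 0.05) and C1qc (0.66 ± 0.04) were higher in PNPi+dG/rG+polyU than in R848, with and without centring. C1qa (0.38 ± 0.05) and Cfp (0.37 ± 0.04) were higher as well, but gave -0.01 each with centring and did not pass (adjusted p = 0.918 and 0.8244). Within a library, the ratio of C3ar1 to C5ar1 in CPM was 1.69 and 1.75 in vehicle, 1.82 and 1.86 with PNPi+dG/rG, 2.19 and 2.36 with polyU, 1.06 and 1.05 with R848, and 3.38 and 3.64 with PNPi+dG/rG+polyU. The 5 groups did not overlap in this ratio, which does not depend on the scaling and was not tested. How often ratios of other genes separate the groups was not counted.

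**Figure D3:**
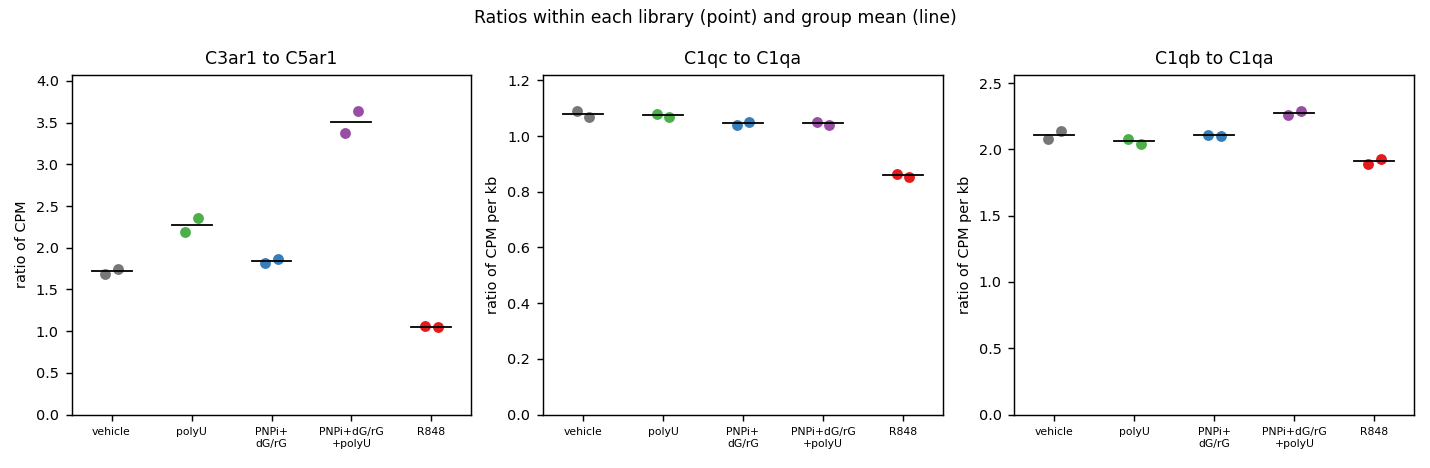
Ratios within each library (points) by group (x axis), with the group mean as a line and axes from 0: C3ar1 to C5ar1 in CPM, and C1qc to C1qa and C1qb to C1qa in CPM per kb of exon. The receptor ratio is 3.38 and 3.64 in PNPi+dG/rG+polyU and 1.06 and 1.05 in R848, and both C1q ratios are lowest in R848.

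Serping1, which encodes C1 inhibitor, was detected above the floor with R848 only. It was at 0 reads in the 6 libraries of vehicle, polyU and PNPi+dG/rG, at 2 and 1 reads in PNPi+dG/rG+polyU, and at 70 and 110 reads in R848, where its level was 3.72 and 3.37 CPM. Against a floor of 3 reads per library, its mean level with R848 was at least 21-fold higher than in vehicle. R848 alone carried Serping1 past the filter on low values, so its test is no support and is not given. The fitted fold depends on the offset added to each value and is not given either. The summed level of 8 fibroblast markers was 151 and 161 CPM in the R848 libraries, 4.11 to 5.28 in PNPi+dG/rG+polyU and 0.618 to 1.47 in the other 6. In PNPi+dG/rG+polyU most of that sum was Pdgfrb, at a mean of 3.74 CPM. It was the only 1 of the 8 above 3 reads in both libraries of that group. With R848, 7 of the 8 were above 3 reads in both libraries, among them Col1a1 at 51.6 and 58.3 CPM, while Lum was at 0 and 2 reads. Liver markers were at or near 0 in all groups. Serping1 and the fibroblast markers were thus highest in the same libraries, and their part in its level was not tested. A list of 8 neutrophil markers summed to 23.0 to 25.2 CPM with R848 and 4.52 to 9.99 elsewhere. S100a8 made up most of that sum, with a mean of 22.2 CPM in R848, while S100a9 was at 1 and 0 reads there and 5 of the 8, Ly6g among them, were at 0 in both R848 libraries. Lists of T and B cell and dendritic cell markers stayed at or below 0.779 CPM, and endothelial markers were at 64.5 to 69.8 CPM with R848 and 143 to 246 elsewhere. Kdr (mean 151 CPM in vehicle and 19.8 in R848) and Vwf (89.6 and 45.1) made up most of that endothelial sum. Cdh5 was at 1.91 and 1.21 CPM, Pecam1 went the other way (0.197 and 1.07), and Tek was at or near 0.

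C1s1 and Csmd1, other complement genes below the filter, were also highest with R848, and were named after their values were seen. Some genes below the filter went the other way. Vsig4 had a mean of 0.337 CPM in vehicle and 0.042 in R848, and C8g 0.337 and 0.0573, all on few reads. How many genes below the filter were highest with R848 was not counted. C1s1, a protease of the C1 complex that C1 inhibitor blocks, was at 18 and 34 reads with R848 and at 0 to 3 reads in the other 8 libraries. Csmd1, a membrane protein with complement control domains, was at 11 and 29 reads with R848 and at 0 or 1 elsewhere. On the floor of 3 reads, the R848 means were at least 5.93-fold and 4.37-fold higher than vehicle. The part of the fibroblast transcripts in these levels was not tested either.

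**Figure D4:**
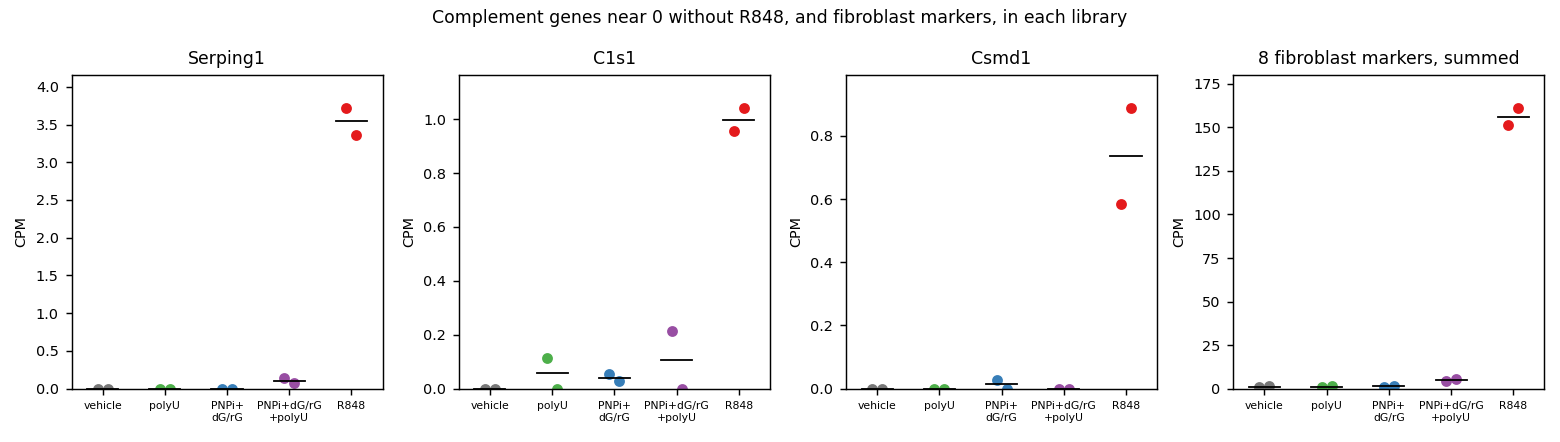
CPM (y axes, from 0) of Serping1, C1s1 and Csmd1 and the summed CPM of 8 fibroblast markers in each library (points) by group (x axis), with the group mean as a line. All 4 panels are highest in both R848 libraries, with the marker sum at 151 and 161 CPM.

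The rest of the system was followed with a list of 49 further complement genes, of which 15 were tested. In PNPi+dG/rG+polyU, 3 of the 15 were higher than vehicle and 9 lower, and with R848 4 were higher and 10 lower, against the shares of all genes given above. With centring these became 5 higher and 8 lower, and 6 higher and 7 lower. PolyU gave 2 higher and 7 lower, and PNPi+dG/rG gave 1 lower, Cd93. Of the 15, 7 passed at 2-fold or more in either treatment, and the direction of those calls was the same with centring. At 2-fold, R848 called 1 of the 15 higher and 6 lower, against 8.89% and 30.3% of all genes. PNPi+dG/rG+polyU called 1 higher and 3 lower, against 8.12% and 14.3%. With centring the 2-fold count in R848 became 2 higher and 3 lower, against 15.0% and 17.6% of all genes. In PNPi+dG/rG+polyU it was still 1 higher and 3 lower, against 9.95% and 10.4%.

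Cd55, the membrane regulator that speeds the decay of C3 convertases, was the one called higher at 2-fold or more in both treatments. C1ra and Cr1l were also called higher in both and Itgax in R848, by less than 2-fold, and are named after their values were seen. With centring C1ra passed 2-fold in R848 (log2 1.33). Cd55 went from 7.83 CPM ± 0.51 (SD, n = 2) in vehicle to 17.9 ± 2.5 in polyU, 28.1 ± 0.2 in R848 and 45.2 ± 0.6 in PNPi+dG/rG+polyU. The log2 fold changes were 1.19, 1.84 and 2.53 (adjusted p = 3.42e-07, 1.566e-10 and 5.49e-12), and PNPi+dG/rG alone gave -0.09 (adjusted p = 0.8972). Like C3, it responded more to PNPi+dG/rG with polyU than without (log2 1.43 ± 0.15, adjusted p = 1.372e-06). Cd59a, which blocks the membrane attack complex, fell by 1.46 on the log2 scale with R848 (adjusted p = 5.7e-08), or by 0.86 with centring, and in PNPi+dG/rG+polyU it was 0.16 above vehicle (adjusted p = 0.2881), or 0.38 with centring (adjusted p = 0.02102).

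Of the 15 genes tested, 8 were listed as receptors. Of these 8, 6 fell with R848 and 7 with PNPi+dG/rG+polyU, against 62.9% and 46.7% of all genes. With centring, Itgb2 turned higher in R848 (log2 0.33), and Itgam (0.75) and Itgax (0.85) were called higher there as well. In PNPi+dG/rG+polyU, Calr, at 0.02, was then no longer called, and Itgax turned from -0.0037 to 0.21 (adjusted p = 0.005718). Itgam was also named after its values were seen. C5ar2, the second receptor of C5a, fell from 15.7 CPM ± 1.5 (SD, n = 2) in vehicle to 1.94 ± 0.49 in R848 and 1.52 ± 0.16 in PNPi+dG/rG+polyU, log2 fold changes of -3.04 and -3.37 (adjusted p = 2.587e-10 and 1.314e-10). It was thus low in both strong treatments, whereas C5ar1 was low in PNPi+dG/rG+polyU. Lrp1, a large endocytic receptor, fell from 5073 CPM ± 246 to 1668 ± 95 in R848 and 1317 ± 44 in PNPi+dG/rG+polyU (log2 -1.61 and -1.94). Cd93, a C-type lectin once described as a C1q receptor, fell from 989.2 CPM ± 0.8 to 307.8 ± 5.2 and 350.9 ± 5.6 (log2 -1.68 and -1.5). With centring the R848 values were -2.44 for C5ar2, -1.01 for Lrp1 and -1.09 for Cd93. C1qbp, a mitochondrial protein that also binds C1q, fell by 1.31 on the log2 scale with R848 and by 0.48 with PNPi+dG/rG+polyU, or by 0.72 and 0.26 with centring. Colec12, a scavenger receptor of the collectin family listed here with the lectin pathway, fell by 1.04 with R848 and by 0.93 with PNPi+dG/rG+polyU, or by 0.45 and 0.72 with centring. Adjusted p was at most 1.128e-05 for each of these falls, and at most 0.001871 with centring.

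**Figure D5:**
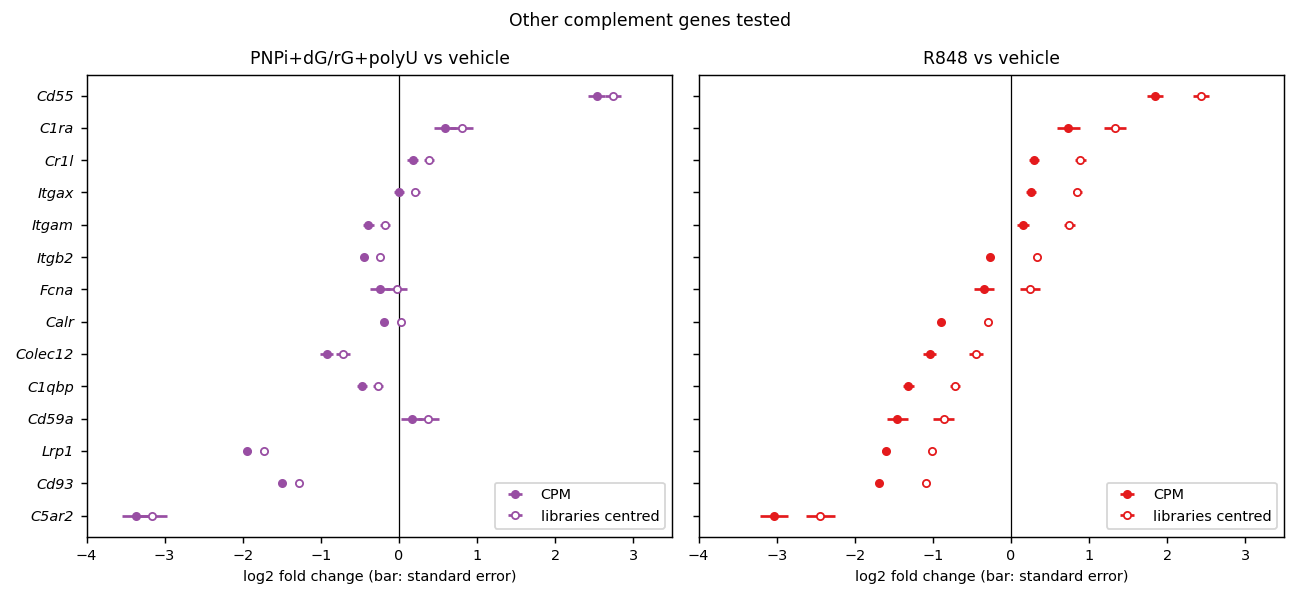
The log2 fold change against vehicle (x axis) of 14 of the 15 other complement genes tested (y axis), for PNPi+dG/rG+polyU and R848, with standard errors as bars, in CPM (filled) and with centred libraries (open). Cd55 is highest at 2.53 and 1.84 and C5ar2 lowest at -3.37 and -3.04, while Itgb2 and Fcna change sign in R848 with centring.

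Genes whose log2 CPM followed a member most closely over the 10 libraries are given as a description, by Pearson's r among tested genes averaging 10 CPM or more. The libraries form 5 groups and share the scale shift of R848, so high values were common: 427 genes had an r above 0.95 with C3 and 1007 with Cfp. C3 was closest to Tma16 (0.9992), Irak2 (0.9979) and Ptgs2 (0.9978). Cfp was closest to Mrpl4, Glrx5 and Atraid (0.9946 to 0.9968). C1qa was closest to Cyba, Ctsz and Dcxr (0.9866 to 0.9908), C1qb to Rpl26, Acaa1a and Mgat4b (0.9877 to 0.994), and C1qc to Rack1 and Rps18 (0.9966 and 0.9956). C3ar1 was closest to Pdia3, 9930111J21Rik2 and Hsp90b1 (0.9974 to 0.9988). For C5ar1 they were Sntb2, Ell and Thra (0.988 to 0.9907), with 39 genes above 0.95. Serping1, at 0 in most libraries, was closest to Itgal, Rab11fip1 and Gpd2 (0.9983 to 0.9989), and Cfb to Klhdc3, B2m and Nectin2 (0.9259 to 0.9482).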

How the data were processed

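Total RNA from BMDMs was made into stranded mRNA libraries (KAPA kit, with dUTP in the second strand) and sequenced as 50 bp reads on a HiSeq 3000. The authors aligned reads with STAR 2.27a to GRCm38 with Ensembl release 97, and deposited 1 table of CPM in which Partek Flow had put an offset of 0.0001 on each value. bcl2fastq 2.19.1.403 is also named in the submitters' processing notes. After removing the offset, 100% of low values were whole multiples of 1 read, to within 0.05 of a step, which gave the reads and depth. Positions came from GENCODE M21 (Ensembl 96), and gene symbols matched 55394 of 55573 identifiers.

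The 11978 genes that reached 1 CPM in 2 or more libraries were tested on log2 of the deposited CPM, offset included, with limma 3.58.1 in R 4.3.3. All 10 libraries entered 1 model, with trended, robust eBayes. Adjusted p is Benjamini-Hochberg over all genes tested. Fold changes are on the log2(CPM + 0.0001) scale. The study used ANOVA on its CPM values in Partek Flow. On simulated data with known changes, limma recovered 65 of 67 at 1.5-fold and 67 of 67 at 2-fold for R848 against vehicle. It also called 15 unchanged genes, among 11550 tested. Few genes were changed there, up and down alike, with no shift of the medians and a fixed spread between replicates. The simulation therefore cannot show how the test behaves under the wide shift seen with R848. Replicates were not duplicates: 15.8% to 26.3% of genes differed beyond counting error within a pair (chi-square on reads). The members, the other complement genes and the marker lists were chosen with earlier results of these data known. Named were all members, the listed complement genes that passed at 2-fold in PNPi+dG/rG+polyU or R848 against vehicle, and the 3 genes most like each member. One of the complement genes tested and one of the like genes are not reported here by name.

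Alternatives were a pseudocount of 0.1 or 1, other filters, centred libraries, plain eBayes, only the groups compared, a replicate block, and dropping 1 library at a time. After seeing the data, a crossed block, a fit without R848 and the C/EBP-like motif were added.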

Additional observations from a re-analysis of the deposited data

Results flagged for a closer look

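The effect of PNPi+dG/rG differed with and without polyU for 3 of the 7 well expressed members, by the interaction term of the limma fit. These were 1 higher and 2 lower, where 11.8% of all genes were higher and 38.9% lower. With centred libraries 5 of the 7 were higher and 1 lower, against 24.1% and 17.0% of all genes: C1qa, C1qb, C1qc and C3ar1 then passed as well (0.20, 0.35, 0.21 and 0.25 on the log2 scale, adjusted p = 0.02999, 0.001849, 0.01501 and 0.0005553). For C3 the difference was 1.81 on the log2 scale (adjusted p = 9.619e-11), and for C5ar1 it was -0.56 (adjusted p = 1.708e-05), both in the same direction with centred libraries (2.09 and -0.28). For Cfp it was -0.20 (adjusted p = 0.01187), and it turned to 0.09 (adjusted p = 0.2645) with centring. The Cfp call was also lost without vehicle replicate 1 (adjusted p = 0.05524) and without PNPi+dG/rG replicate 1 (adjusted p = 0.06241).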

How the results depend on the processing

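Over 7 comparisons of 8 members and 2 of Serping1, with all alternatives, 1050 values kept their direction and their side of the threshold, 30 changed direction, 17 lost their call and 13 gained one. These totals include the R848 tests of Cfb and Serping1, which are no support. Centring the libraries had the widest effect. Against vehicle it turned Cfp (0.18) and C3ar1 (0.21) in PNPi+dG/rG+polyU and Cfp (0.19), C1qa (0.54), C1qb (0.40), C1qc (0.21) and C5ar1 (0.45) in R848 to higher values. For PNPi+dG/rG+polyU against polyU it turned Cfp (0.13), C1qa (0.21), C1qc (0.17) and C3ar1 (0.20), and against R848 it turned Cfp (-0.0114) and C1qa (-0.0064). For the interaction it turned Cfp (0.087), C1qa (0.20), C1qc (0.21) and C3ar1 (0.25). Members called went from 3 to 7 for PNPi+dG/rG+polyU against polyU and from 3 to 6 for the interaction, while all genes called went from 63.3% to 55.4% and from 50.7% to 41.1%, and the cause was not tested beyond the shift of the medians. Leaving out 1 library at a time kept the direction of the 7 well expressed members for R848 against vehicle. On the log2 scale C1qa ran from -0.1058 to -0.0028 and C5ar1 from -0.1802 to -0.1149. Without R848 replicate 1, Cfb and Serping1 were no longer tested. Small values changed sign among the fits that left out a library. With PNPi+dG/rG against vehicle these were Cfb (-1.14 to 0.18), C1qa (-0.0104 to 0.0896), C1qb (-0.0278 to 0.0981), C1qc (-0.0557 to 0.0411) and C3ar1 (-0.0488 to 0.0051). With PNPi+dG/rG+polyU they were Cfp (-0.0766 to 0.0062) and C3ar1 (-0.0121 to 0.0042) against vehicle and C1qa against polyU (-0.0934 to 0.0047), and for the interaction C1qb (-0.0021 to 0.1238). C1qb with R848 lost its call without vehicle replicate 2 (adjusted p = 0.05102). Cfp against polyU lost its call without polyU replicate 2 (adjusted p = 0.06965) and without either PNPi+dG/rG+polyU library (0.0691 and 0.0571), and Cfp with polyU gained one without vehicle replicate 2 (adjusted p = 0.04871). C1qc was called lower than in polyU without polyU replicate 1 (adjusted p = 0.04722). Plain eBayes ended the Cfp calls against polyU (adjusted p = 0.06733) and in the interaction (0.06048) and that of C5ar1 with R848 (0.09078). Replicate numbers did not pair the libraries (deviation correlations -0.286 to 0.109). The replicate block changed 1 call, that of Serping1 with R848, which is no support. When PNPi+dG/rG replicate numbers were swapped, the block called 5 members for PNPi+dG/rG+polyU against polyU and 6 for polyU. A fit without R848, added after seeing the data, changed no call among the 35 values it gave. The filter on the mean left Cfb and Serping1 untested. A planned edgeR test on recovered reads was not run. Depth limits Cfb, Serping1, C1s1 and Csmd1, which stood on 110 reads or fewer in any library.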

Other observations

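Part of the complement system was not detected in these macrophages. Of the 49 other complement genes, 20 had at most 3 reads in every library and 14 of these were at 0 throughout. Among all 55573 genes, 35373 to 38134 were at 0 in a given library, and 25920 had a read in at least 1 library. Genes at 0 throughout were thus common among all genes too. Those with at most 3 reads in every library were not counted over all genes. Of 8 alternative and terminal pathway genes, 6 were at most at 3 reads, among them Hc, which encodes C5, at 0 or 1 read. Cfd, which encodes the protease that cleaves factor B, was listed at 0 in all libraries. C2, the neighbour of Cfb on chromosome 17 and the classical pathway counterpart of factor B, was at 0.276 to 0.787 CPM. Its mean was 0.562 CPM ± 0.318 (SD, n = 2) in vehicle, on 6 and 14 reads, and 0.297 ± 0.030 in R848, on 6 and 9 reads. This difference was not tested. Of the exon bases of C2, 42.8% are shared on the same strand with Gm20547, so its level is uncertain like that of Cfb. Masp1, a protease of the lectin pathway, was at 12 and 15 reads with R848, and 8 and 10 were the highest counts with polyU and PNPi+dG/rG, so that its groups lay closer together than those of Serping1.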
